A study of Mus musculus with 8 samples.

Results

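The regions described here are the RelA peaks at the ends of noncoding genes in mouse embryonic fibroblasts, away from protein-coding gene ends. A peak was included when its centre lay on chromosomes 1 to 19, within 1 kb of either end of a lncRNA, microRNA, other RNA gene or pseudogene and more than 1 kb from every protein-coding gene end. Of 9829 peaks in the list, 9688 lay on these chromosomes and 455 met the rule (4.70%, Wilson 95% interval 4.29 to 5.14%, which covers counting error only, as do all intervals below). RelA, also called p65, was precipitated from primary wild-type C57BL/6 embryonic fibroblasts that had been serum-starved overnight and treated with TNF (10 ng/ml). The 8 libraries comprise 2 RelA ChIP libraries for each of 0, 0.5 and 3 h of TNF and 2 of input DNA, and the labels do not say whether libraries came from separate embryos or cultures. The peak list has no column for a library or a time, no height and no score. The times could therefore not be compared, the depth behind each peak is unknown, no spread between replicates could be calculated, and the fibroblast label could not be checked against markers. All comparisons below are descriptions of 1 list, without a test, because peaks are not replicates of a condition.

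NF-kB is a family of dimeric transcription factors held in the cytoplasm by I-kappa-B proteins. TNF triggers the destruction of I-kappa-B, so that RelA enters the nucleus and binds kappaB sequences in promoters and enhancers. Noncoding genes give RNAs that are not translated. Long noncoding RNAs (lncRNAs) are transcribed like mRNAs, and some lie antisense to or beside the genes they are studied with. MicroRNAs are cut as hairpins from longer primary transcripts and repress mRNAs through their seed, so an annotated hairpin end does not mark a start of transcription. Pseudogenes are copies of genes that no longer encode the full protein.

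For a choice of the microRNA genes at these peaks, mature sequences are shown from RefSeq (GRCm38.p6), with the seed, bases 2 to 8, in capitals. The sequences are both arms of Mir155 and of the miR-199a genes, and only the 3p arm of Mir210 and Mir193a. They show that a pair of peaks on different chromosomes lie at genes that give the same mature RNAs: Mir199a-2 on chromosome 1 and Mir199a-1 on chromosome 9 share both arms.
miR-155-5p: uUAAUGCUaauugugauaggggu
miR-155-3p: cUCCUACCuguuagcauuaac
miR-199a-5p from Mir199a-2: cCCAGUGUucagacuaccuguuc
miR-199a-5p from Mir199a-1: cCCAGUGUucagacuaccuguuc
miR-199a-3p from Mir199a-2: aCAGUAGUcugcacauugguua
miR-199a-3p from Mir199a-1: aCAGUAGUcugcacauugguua
miR-210-3p: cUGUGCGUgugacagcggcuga
miR-193a-3p: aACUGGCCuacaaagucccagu

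RefSeq promoter windows, 250 bases before to 50 after a listed start (GRCm38.p6, the assembly that mm10 names), are shown for the 5 named lncRNAs whose start lay inside their peak and whose window held the classical kappaB consensus, in capitals. They were 1110036E04Rik (chr9:64049579-64049878, plus strand), 4833438C02Rik (chr19:46305580-46305879, minus strand), 4930542M03Rik (chr17:45881403-45881702, minus strand), 4930578M01Rik (chr15:98985715-98986014, plus strand) and Gm10649 (chr8:76900572-76900871, minus strand). 4833438C02Rik, which lies inside Nfkb2, and 4930578M01Rik hold the same letters, the minus-strand form of a much studied kappaB sequence. The window of Mir155hg (chr16:84712773-84713072, plus strand), the host gene of miR-155, is printed last for comparison and was chosen after its values were seen. It held neither the consensus nor a looser string, GGG and CC with any 5 bases between, on either strand, which says only that these letters are not in this window.
1110036E04Rik: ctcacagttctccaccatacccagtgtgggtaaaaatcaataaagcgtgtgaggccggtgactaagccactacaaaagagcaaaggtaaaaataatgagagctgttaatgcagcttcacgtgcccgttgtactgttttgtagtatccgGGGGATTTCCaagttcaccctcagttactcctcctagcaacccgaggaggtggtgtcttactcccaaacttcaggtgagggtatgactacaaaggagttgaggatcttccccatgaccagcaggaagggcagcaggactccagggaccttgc
4833438C02Rik: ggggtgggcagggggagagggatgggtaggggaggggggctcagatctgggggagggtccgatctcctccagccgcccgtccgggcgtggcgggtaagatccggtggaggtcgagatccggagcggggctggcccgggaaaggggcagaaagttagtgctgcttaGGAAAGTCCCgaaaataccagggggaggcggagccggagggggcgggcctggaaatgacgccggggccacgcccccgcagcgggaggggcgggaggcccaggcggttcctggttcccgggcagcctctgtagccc
4930542M03Rik: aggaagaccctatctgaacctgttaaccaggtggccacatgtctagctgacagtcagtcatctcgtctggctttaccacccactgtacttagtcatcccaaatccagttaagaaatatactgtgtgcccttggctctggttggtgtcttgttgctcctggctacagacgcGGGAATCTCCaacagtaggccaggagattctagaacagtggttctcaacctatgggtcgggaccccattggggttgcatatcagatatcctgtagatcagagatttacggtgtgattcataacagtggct
4930578M01Rik: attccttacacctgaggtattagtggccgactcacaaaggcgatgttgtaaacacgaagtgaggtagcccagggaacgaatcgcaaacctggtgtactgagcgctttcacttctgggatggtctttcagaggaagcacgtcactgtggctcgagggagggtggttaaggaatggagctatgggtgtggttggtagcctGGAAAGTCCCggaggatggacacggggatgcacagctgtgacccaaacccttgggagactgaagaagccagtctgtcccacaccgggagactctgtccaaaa
Gm10649: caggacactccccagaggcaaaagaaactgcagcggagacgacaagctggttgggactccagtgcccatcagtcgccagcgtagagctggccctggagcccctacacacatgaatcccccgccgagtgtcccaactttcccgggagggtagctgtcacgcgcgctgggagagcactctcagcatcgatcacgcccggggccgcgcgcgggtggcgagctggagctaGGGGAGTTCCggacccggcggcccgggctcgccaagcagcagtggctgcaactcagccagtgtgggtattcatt
Mir155hg: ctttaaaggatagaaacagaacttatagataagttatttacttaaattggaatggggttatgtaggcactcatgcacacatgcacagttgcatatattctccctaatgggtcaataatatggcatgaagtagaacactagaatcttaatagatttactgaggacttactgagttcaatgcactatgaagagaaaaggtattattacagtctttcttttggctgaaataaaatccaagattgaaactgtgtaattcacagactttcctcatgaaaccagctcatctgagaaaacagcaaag

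Most of the peaks were at lncRNA genes. The nearest noncoding gene was a lncRNA at 380 of 455 peaks (83.5%, 79.8 to 86.6%), 2 of which are annotated as antisense RNA. It was a pseudogene at 47 (10.3%), a microRNA gene at 16 (3.52%) and another RNA gene at 12 (2.64%). In all, 466 noncoding genes had an end within 1 kb of these peaks, 1.78% of the 26151 noncoding genes on chromosomes 1 to 19, and at 15 peaks more than 1 noncoding gene was that close. Counting every peak, also those near a protein-coding end, 2.45% of noncoding genes and 6.58% of protein-coding genes had a peak centre within 1 kb of an end. By kind, 381 of 12330 lncRNA genes (3.09%) stood at the peaks described here, against 19 of 1136 microRNA genes (1.67%), 17 of 2782 other RNA genes (0.611%) and 49 of 9401 pseudogenes (0.521%). The intervals of the lncRNA and microRNA shares, 2.80 to 3.41% and 1.07 to 2.60%, do not overlap. The median gene length was 8420 bp for lncRNA, 80 bp for microRNA, 107 bp for other RNA genes and 910 bp for pseudogenes. At short genes the 1 kb windows around both ends overlap, so less sequence is searched. The part of gene length in these shares was not tested. Of the annotated ends, many are predicted: at 268 of the 455 peaks (58.9%) the nearest noncoding gene has only predicted transcripts, at 143 (31.4%) it has a curated one and at 44 (9.67%) it has no transcript accession. The 455 peaks have 449 distinct nearest genes. At most peaks the gene carries a placeholder name, of the Gm form at 329 and of the Rik form at 67.

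**Figure D1:**
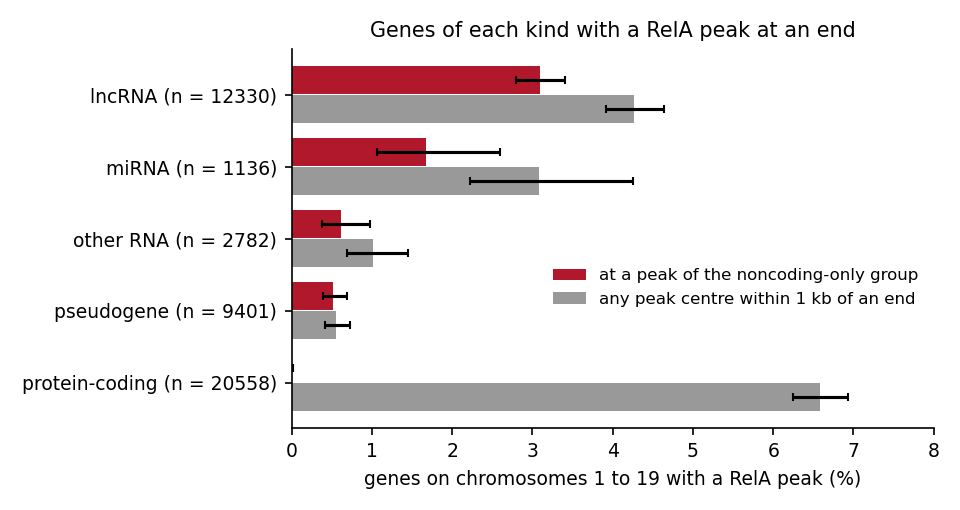
Share of genes on chromosomes 1 to 19 with a RelA peak centre within 1 kb of an end (horizontal axis, percent), by gene kind. Red bars count the peaks at noncoding ends only (0 protein-coding genes by the rule), grey bars count any peak, and error bars are Wilson 95% intervals; lncRNA genes reach 3.09 and 4.27%, pseudogenes 0.521 and 0.553%.

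MicroRNA genes were the end of interest at 19 peaks. Mir155hg, whose transcript is cut to miR-155, a microRNA induced in inflammatory activation of immune cells, had a 609 bp peak over its start on chromosome 16 (84712893 to 84713501), with the centre 174 bp inside the gene. The Mir155 hairpin lay 943 bp from the peak centre, downstream of it and outside the peak. Dnm3os, a mesenchymal lncRNA transcribed against Dnm3 that carries Mir199a-2 and Mir214, had a 1250 bp peak on chromosome 1 (162216703 to 162217952), centred 295.5 bp outside its start. The Mir199a-2 hairpin lay inside this peak, 486.5 bp from its centre, and Mir214 lay 6.04 kb away. Mir199a-1, which lies inside the dynamin gene Dnm2 on chromosome 9, had a 1347 bp peak (21496286 to 21497632) that also contained the hairpin. Both miR-199a genes thus stood inside peaks that were wider than the upper quartile of all 455, 834 bp.

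Other microRNA peaks were of varied width. The peak at Mir210, a hypoxia-induced microRNA gene on chromosome 7, was 819 bp wide (141221681 to 141222499) and centred 597 bp upstream of the hairpin, between protein-coding genes. The peak at Mir193a on chromosome 11 was 784 bp wide (79710791 to 79711574) and centred 786.5 bp upstream. The Mir802 peak on chromosome 16 was 814 bp wide, overlapped the hairpin and lay 214 kb from a protein-coding end. The widest of all 455 peaks, 1793 bp on chromosome 11 (53762622 to 53764414), contained the hairpin of Mir7671 and lay 6.5 kb from Irf1, an interferon regulatory factor gene. Of the 19 microRNA genes, 5 lay inside their peak, 2 overlapped it and 12 were outside. The peak centre was upstream of the hairpin at 10 and downstream at 7 of the 17 genes whose strand is given. A protein-coding gene held 13 of the 19 hairpins, and 5 stood in no protein-coding or lncRNA gene. The remaining named microRNA genes were Mir7688, Mir3971, Mir5110, Gm51283, Mir6539, Mir6391, Mir6991, Mir466q, Mir3473e, Mir7228, Mir7649 and Mir3109, with distances of 172 bp at Gm51283 to 878 bp at Mir3473e.

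A list of noncoding RNAs known from other work was then read against the peaks. Of 84 listed genes found on chromosomes 1 to 19, 13 stood at one of the 455 peaks (15.5%, 9.27 to 24.7%), against 1.78% of all noncoding genes. Of all lncRNA genes 3.09% and of all microRNA genes 1.67% stood at these peaks. The list holds no pseudogenes, which are among all noncoding genes. Within 10 kb of any peak, the count was 31 of 84 (36.9%), against 11.6% of all noncoding genes. Pairs of these genes share a peak (Mir155 with Mir155hg, Mir199a-2 with Dnm3os), so the 13 genes are 11 peaks. The list was written with earlier results of these data known, so it is no independent evidence.

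The listed lncRNAs had peaks at different places. Trp53cor1 (lincRNA-p21), which lies beside the cell cycle inhibitor gene Cdkn1a and is induced by p53, had a 519 bp peak on chromosome 17 (29078815 to 29079333) centred 52 bp from its end nearer Cdkn1a, and another peak lay within 10 kb. Terc, the RNA template of telomerase, lay within a 753 bp peak on chromosome 3 (96414152 to 96414904), whose centre was 91 bp inside the gene. Lncenc1, known from embryonic stem cells, had a 796 bp peak centred 364.5 bp inside its start on chromosome 13, 182 kb from the nearest protein-coding end. Carmn, host of the smooth muscle microRNAs miR-143 and miR-145, had a 1649 bp peak on chromosome 18 (61664379 to 61666027) centred 335 bp inside an end, the third widest of the 455.

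At the remaining listed genes the peak centre was farther from the end. Lockd, beside the cell cycle inhibitor gene Cdkn1b, had a peak 659.5 bp outside its start. Carlr had one 675.5 bp outside its start. Morrbid, a regulator of the cell death gene Bcl2l11 in myeloid cells, had one 961.5 bp inside its start. Hotair and Hotairm1, transcribed within the HoxC and HoxA clusters, had peaks 710 bp outside and 901.5 bp inside an end, with protein-coding Hox genes 4.74 and 1.11 kb away. Rmrp and Rpph1, the RNA parts of the RNase MRP and RNase P enzymes, also had a peak within 1 kb (0.128 and 0.0945 kb) but are left out by the rule, since a protein-coding end is also within 1 kb.

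Some of the peaks lay beside genes of the TNF and NF-kB response. At 13 of 455 peaks (2.86%, 1.68 to 4.83%) the nearest protein-coding gene was one of 188 listed response genes, at distances up to 137 kb. This share is near the background, 3.23% of all 9688 peaks and 2.81% of the 8015 other peaks beyond 1 kb of protein-coding ends, so it is not a result about these peaks, and the loci are given as descriptions. The 1610 bp peak on chromosome 19 (46304251 to 46305860) covered the start of 4833438C02Rik, antisense within Nfkb2, the gene of the p100/p52 subunit, and was 4.06 kb from the nearer Nfkb2 end. Gm36634 starts beside Nfkbia, which encodes I-kappa-B-alpha, and runs away from it. The 483 bp peak on chromosome 12 (55498896 to 55499378) lay at the other end of Gm36634, centred 574 bp inside the gene and 6.49 kb from Nfkbia, with 2 other peaks within 10 kb. 4930595D18Rik had a 695 bp peak at its other end (238 bp), 6.23 kb from Traf3, a TNF receptor-associated adaptor gene. At Cxcl11, annotated as a transcribed pseudogene, a 543 bp peak was centred 70 bp outside the gene and 14.5 kb from its chemokine neighbour Cxcl10, with 5 other peaks within 50 kb. Gm51543 had a 787 bp peak 3.19 kb from Cx3cl1, another chemokine gene.

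Other response neighbours were the prostaglandin synthase gene Ptges (13.2 kb, at Gm52550) and, farther away, the transcription factor genes Klf4 (67.0 kb, Gm12511), Klf10 (84.0 kb, Gm41307), Irf8 (110 kb, Gm39267) and Klf6 (137 kb, Gm35330) and the growth factor gene Vegfa (136 kb, 4930542M03Rik), beside Irf1 named above. The 13.2 kb runs to the nearer end of Ptges, but the Gm52550 peak was centred 600.5 bp from another listed Ptges start. As a group, the share of peaks near a response gene was close to that of peaks in general. A response gene end lay within 50 kb of 12 of 455 peaks (2.64%, 1.51 to 4.55%), against 221 of 8015 other peaks beyond 1 kb of protein-coding ends (2.76%) and 3.46% of all 9688 peaks. Within 10 kb the shares were 1.32% and 1.02% of these other peaks. By list the counts are too small to read: interferon response genes accounted for 3 of the 12 (0.659% of the 455 peaks, against 0.310% of all peaks) and chemokines for 2 (0.440%, against 0.372%).

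**Figure D2:**
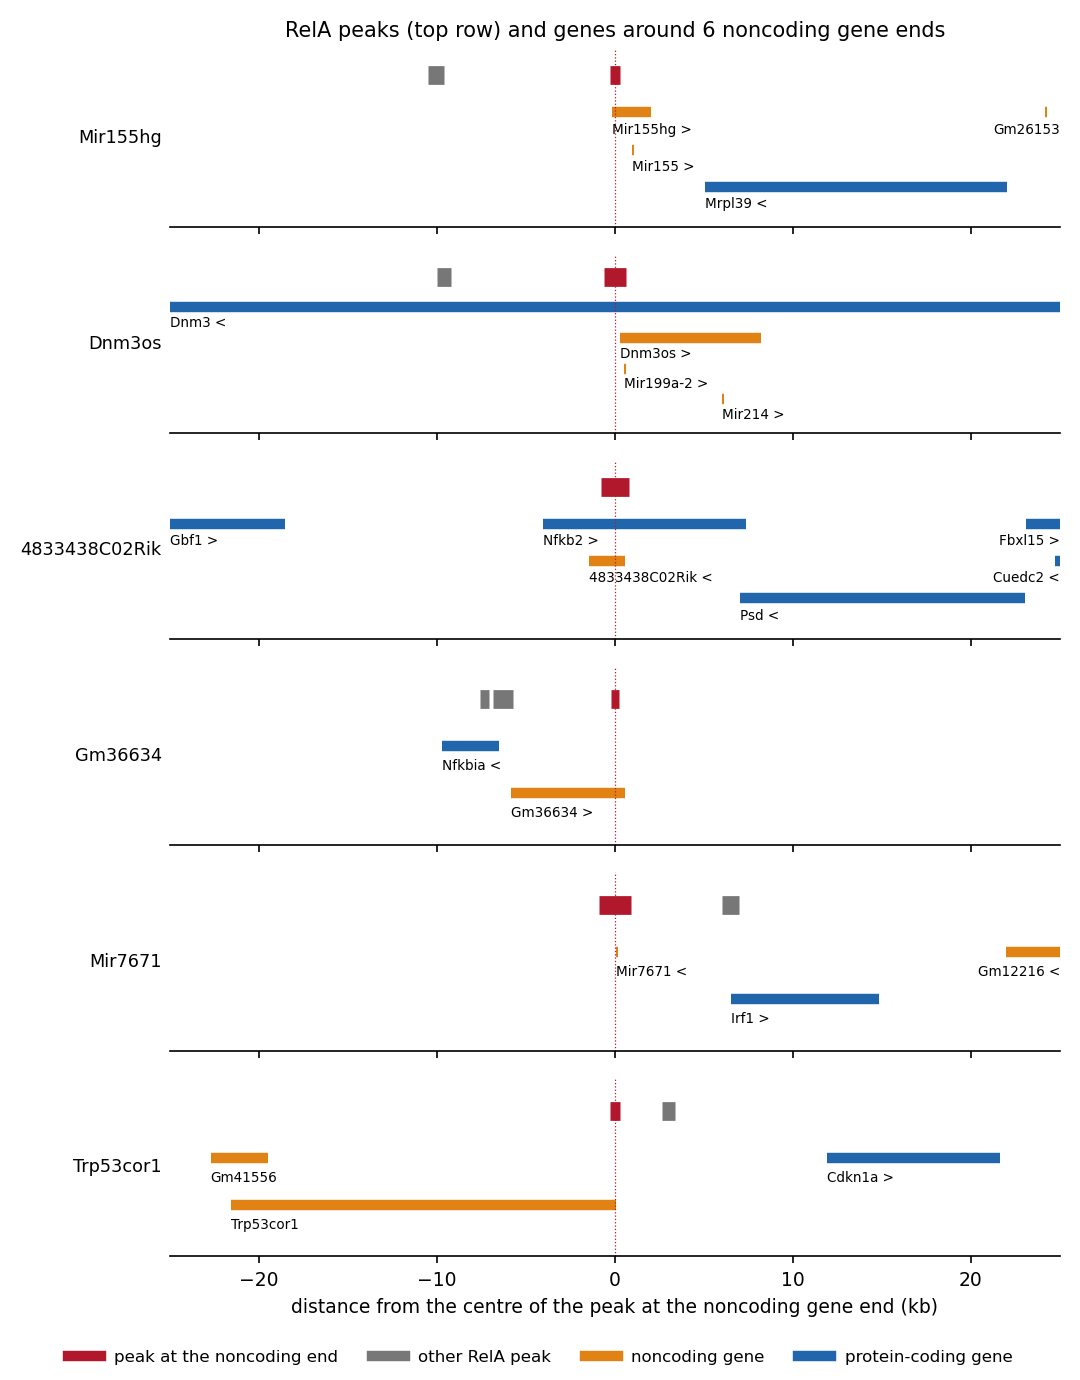
RelA peaks (top row of each panel, red for the peak at the noncoding end, grey for other peaks) and genes (orange noncoding, blue protein-coding, > plus and < minus strand where given) against distance from the peak centre in kb, up to 25 kb on either side. The panels show Mir155hg, Dnm3os with both its microRNA genes, 4833438C02Rik inside Nfkb2, Gm36634 beside Nfkbia, Mir7671 beside Irf1, and Trp53cor1 beside Cdkn1a.

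Where a strand is given, the peaks lay more often at the start of the lncRNA than at its other end. Of 289 such lncRNA peaks, 180 (62.3%, 56.6 to 67.7%) were at the start and 109 at the other end. At protein-coding gene ends the share at the start was 90.8% (898 of 989). These shares come from unlike sets. Of 627 peaks within 1 kb of a noncoding end, the rule left out 172 that were also within 1 kb of a protein-coding end. No such exclusion was made for the protein-coding set, and its part in the difference was not tested. Peaks at starts were also closer: their median distance was 372 bp, against 496 bp at other ends, and 69 of 180 (38.3%, 31.5 to 45.6%) were within 250 bp, against 21 of 109 (19.3%, 13.0 to 27.7%). Over all 455 peaks the median distance was 425 bp (quartiles 211 and 712 bp), and 222 centres (48.8%) lay inside the nearest noncoding gene. The rule allows no distance above 1 kb, so all these distances are bounded by it and are not by themselves a sign of closeness. The peaks at starts had a median width of 736 bp and those at other ends 699 bp. At starts the most populated 200 bp was the first inside the gene, with 34 peaks, next to 24 in the last 200 bp outside. At other ends these bins held 7 and 8.

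**Figure D3:**
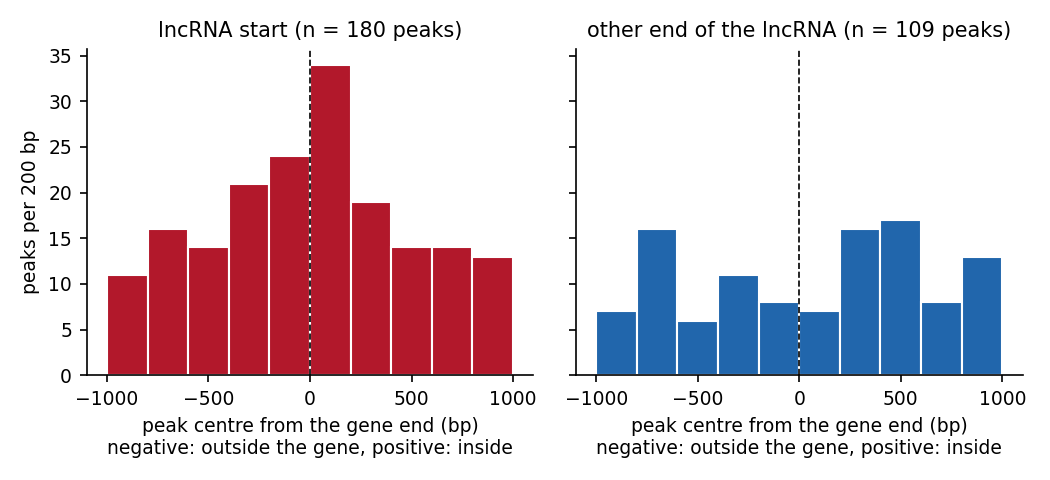
Number of peaks per 200 bp (vertical axis) against the distance of the peak centre from the gene end in bp (horizontal axis, negative outside and positive inside the gene), for 180 peaks at lncRNA starts (left, red) and 109 at the other end (right, blue). The starts have their highest bin, 34 peaks, just inside the gene, and the other ends have no central maximum.

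The closest peaks were mostly at starts of little-studied lncRNAs. The centre lay 3.5 bp from the start of 4930578M01Rik, 4.5 bp from that of Gm46095, 7.5 bp from that of 8430423G03Rik and 12 bp from that of Gm29906. Gm40164, 14.0 kb from the matricellular protein gene Ccn1, followed with 19.5 bp, Gm10649 with 22.5 bp, Gm40093 with 23 bp and Gm39090 with 24 bp, all at the start. Gm34630 (16.5 bp), on chromosome 18, has no strand in the tables used, and Gm40748 (25.5 bp) had its peak at the other end. In 6 lncRNA genes 2 peaks of the group were found. At 3 of them the peaks lay at opposite ends. Measured from the peak centres, those of Gm11823 were 67 bp from its other end and 482.5 bp from its start, those of Gm32199 were 704.5 and 458.5 bp from its ends, and those of 9430024E24Rik were 525.5 and 815.5 bp from its ends. At 4933402J15Rik, Gm31546 and Gm52551 both peaks lay at the same end, and one Gm31546 peak was 1.47 kb from Irf2bp2.

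Pseudogenes and small RNA genes made up the rest. Besides Cxcl11, the pseudogenes, named after their values were seen, included the class I histocompatibility members H2-K2 (153.5 bp) and H2-T10 (365 bp), and Serpina3h (257 bp) of the acute-phase serpin cluster. Pseudogenes and class I genes have close copies elsewhere, so the placement of short reads among them is uncertain. The peaks at pseudogenes had a median width of 657 bp, against 702 bp at lncRNAs and 744 bp at microRNA genes. The 12 other RNA genes were 4 transfer RNA genes, 3 small nucleolar and 3 small nuclear RNA genes, Terc and 1 miscellaneous RNA. The closest of them was Snora78, 61 bp from the centre of a 679 bp peak that also lay within 1 kb of Snhg9 and of a listed start of the ribosomal protein gene Rps2.

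Promoter windows of lncRNAs whose start lay inside one of the peaks held kappaB-type letters more often than lncRNA windows in general. Their shares were not clearly different from those of lncRNA windows with a start inside any peak, which include these windows. Those shares, 68.7% and 27.1%, lie inside the intervals below. Protein-coding windows with a start inside any peak had higher shares, though for the consensus (31.2%) only at the edge of the interval. The looser string, GGG and CC with any 5 bases between, searched on both strands, was present in 70 of 115 such windows from 103 genes (60.9%, 51.7 to 69.3%), against 39.5% of all 11311 lncRNA windows and 57.9% of all protein-coding windows, the second of which is inside the interval. It was in 68.7% of the 214 lncRNA windows with the start inside any peak, which include the 115, and in 80.5% of protein-coding windows with the start inside a peak. The classical kappaB consensus, a narrower form whose matches are all matches of the looser string too, was present in 26 of 115 (22.6%, 15.9 to 31.1%), against 7.01% of all lncRNA windows, 8.55% of all windows, 27.1% of lncRNA windows with the start inside any peak and 31.2% of protein-coding windows with the start inside any peak. The median GC content was 51.7% in the 115 windows, 48.3% in all lncRNA windows, 58.0% in lncRNA windows and 62.3% in protein-coding windows with the start inside any peak, and its part in these shares was not tested. Windows of 1 gene can overlap. The 29 consensus matches, in windows at 23 peaks, lay a median of 148 bp from the peak centre, and the 106 other matches of the looser string 168 bp. Windows can run past the peak, and their start had to lie inside it, which bounds these distances. Peaks with a consensus match in a window had a median width of 804 bp and the 77 others 761 bp. The AP-1 string TGANTCA, chosen after seeing the data, was in 21 of 115 windows (18.3%, 12.3 to 26.3%), against 9.25% of all lncRNA windows. It was in 5.45% of protein-coding windows with the start inside a peak. Of the 214 lncRNA windows with the start inside any peak, 28 held it (13.1%). These 28 include the 21, so that share is not a separate comparison. A match is a description and not a binding site.

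In median width the peaks stood between those at protein-coding ends and the rest, and close to the rest. The lower quartiles of the peaks and of the rest were 588 and 582 bp, and no interval is given here for the medians. Their median was 697 bp (quartiles 588 and 834 bp, range 375 to 1793 bp), against 766 bp at protein-coding ends and 679 bp for other peaks beyond 1 kb of a protein-coding end. Peaks of 1100 bp or more made up 34 of 455 (7.47%, 5.40 to 10.3%), against 10.4% at protein-coding ends and 4.13% (3.72 to 4.59%) of the other peaks. After the Mir7671 peak, the widest were those of Gm51774 (1759 bp, with the collagen gene Col6a2 as its nearest protein-coding gene), Carmn, 4833438C02Rik, Gm31939 (1599 bp, inside the peroxidasin gene Pxdn), 1110036E04Rik (1577 bp, 28.2 kb from Smad6, an inhibitor of BMP signalling), 1700126H18Rik (1557 bp), Gm52917 (1438 bp), Gm33055 (1429 bp, 30.8 kb from Cyp1b1) and the transcribed pseudogene Gm9833 (1382 bp). The Gm31939 peak also held a listed start of Pxdn, 652 bp from its centre. The peak list gives no height, so width is not a measure of how much RelA was bound.

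**Figure D4:**
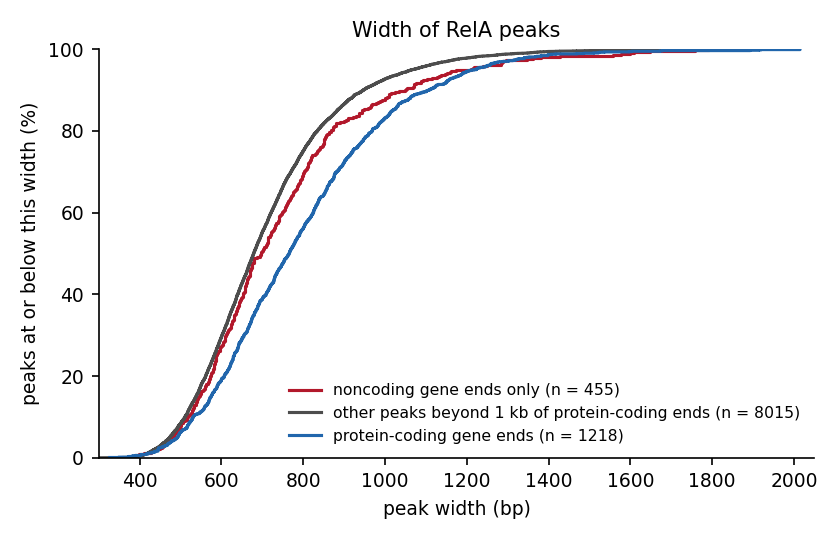
Cumulative share of peaks (vertical axis, percent) against peak width in bp for the 455 peaks at noncoding ends only (red), 8015 other peaks beyond 1 kb of protein-coding ends (grey) and 1218 peaks at protein-coding ends (blue). The red curve lies between the other curves over most of the range, with medians of 697, 679 and 766 bp.

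The peaks lay inside protein-coding genes less often than other peaks of their class, and nearer to protein-coding ends. The centre lay inside a protein-coding gene at 133 of 455 (29.2%, 25.2 to 33.6%), against 47.6% (46.5 to 48.7%) of other peaks beyond 1 kb of protein-coding ends. The median distance to a protein-coding end was 24.8 kb, against 36.9 kb, and 125 (27.5%, 23.6 to 31.7%) were within 10 kb of such an end, against 21.0% (20.2 to 22.0%). The rule ties these peaks to annotated noncoding genes, and the same shares for noncoding gene ends in general were not calculated. How far the places of those genes set both differences was therefore not tested. Only gene ends were used to choose the peaks, so another start of a protein-coding gene could lie within 1 kb. This held for 19 peaks (4.18%, 2.69 to 6.43%), which are not purely noncoding by start site, against 2.27% of all peaks beyond 1 kb of a protein-coding end. Among them, named after their values were seen and with distances from the peak centre, were the 4833438C02Rik peak, 318.5 bp from a listed Nfkb2 start, the Hk1os peak, 33 bp from a start of the hexokinase gene Hk1, the A630026N12Rik peak, 11.5 bp from a Gabpb1 start, and the Gm40397 peak, 207 bp from a start of the WNT ligand gene Wnt5b.

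**Figure D5:**
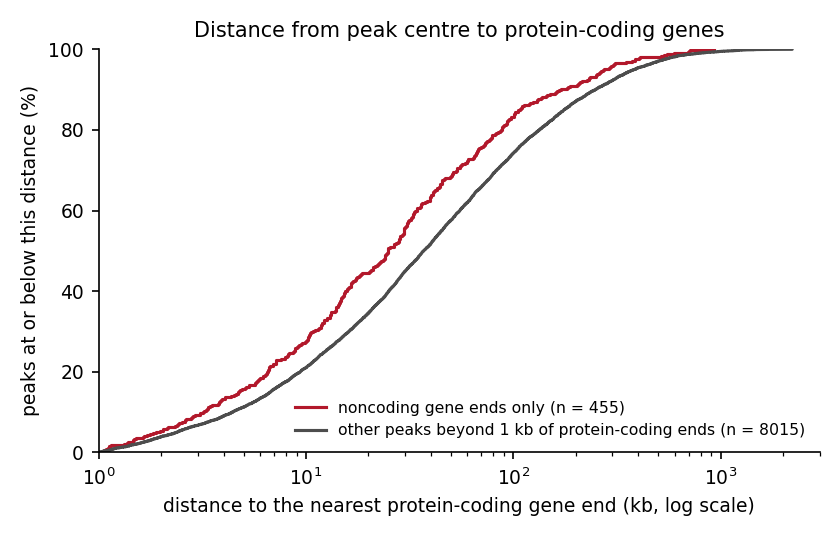
Cumulative share of peaks (vertical axis, percent) against how far the nearest protein-coding gene end was from the peak centre in kb (horizontal axis, log scale), for 455 peaks at noncoding ends only (red) and 8015 other peaks beyond 1 kb of protein-coding ends (grey). The red curve is reached at shorter distances, with medians of 24.8 and 36.9 kb.

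Another peak centre lay within 10 kb of 84 of the 455 peaks (18.5%, 15.2 to 22.3%), against 15.8% of all 9688 peaks, which is inside that interval. The shares were 75 of 380 at lncRNAs (19.7%), 3 of 16 at microRNA genes, 6 of 47 at pseudogenes and 0 of 12 at other RNA genes. Every autosome held some of the peaks. Chromosomes 1, 11 and 2 held 34, 32 and 31, and chromosome 18 the fewest, 14. As a share of a chromosome's peaks the range was 3.65% on chromosome 18 to 6.97% on chromosome 19 (17 of 244), with overlapping intervals of 2.18 to 6.03% and 4.40 to 10.9%.

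At the edge of the rule, the peaks just inside were centred 994.5 bp (Gm9584), 986.5 bp (4930554I06Rik) and 986.5 bp (Gm31651) from a noncoding end, and those just outside 1002 bp (LOC115490491), 1003.5 bp (E230016K23Rik) and 1007 bp (Gm12984). On the protein-coding side, the peak at LOC102639719 was kept with Colq 1026.5 bp away, and that at Gm41589 was left out with Trerf1 at 985.5 bp.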

How the data were processed

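The authors deposited 1 list of RelA ChIP-seq peaks, whose only values are peak positions (chromosome, start, end, in bp). The submitters' processing notes name mm10 and, in no stated order, MACS2, deepTools, Picard 1.13, SAMtools, Bowtie2 2.3 and cutadapt 1.9.1. How peaks were thresholded, whether libraries were pooled and how input was used is not stated in the sources used here. Per the labels' protocols, chromatin was fixed with disuccinimidyl glutarate and formaldehyde, which can also hold proteins that touch DNA indirectly. The depth of each library is unknown.

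Peak starts, counted from 0 in the list, are given counted from 1. Genes were placed with a RefSeq table of GRCm38.p6 with 46709 genes on chromosomes 1 to 19, leaving out 333 on other scaffolds. It has no exons, and strands were taken from the RefSeq promoter and microRNA tables, which gave one for the nearest gene at 303 of the 455 peaks and held no promoter window on chromosome 18. Distances run from the peak centre to a gene end. Of 192 listed response genes, 188 matched a protein-coding gene. The members and lists were chosen with earlier results of these data known. Named genes followed a rule (the noncoding RNA list, microRNA genes, genes with 2 peaks, the 10 widest and 10 closest peaks, and neighbours of response genes). The peak of 1 response neighbour is counted but not reported here. No tests were run, Wilson 95% intervals were computed with scipy 1.17.1 in Python 3.11.15, and the scripts were tested on simulated data. Alternatives changed the windows, the overlap, the gene kinds, merging, width and the string searched.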

Additional observations from a re-analysis of the deposited data

Results flagged for a closer look

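Outside chromosomes 1 to 19, 4 of 135 peaks on chromosome X (2.96%, Wilson 95% interval 1.16 to 7.37%) met the same distances, above the 3 counts that a count of 0 allows. They lay at the lncRNAs Gm46687 (545.5 bp) and 5730405O15Rik (61 bp), the microRNA gene Mir5617 (702.5 bp) and the pseudogene Gm6973 (558.5 bp). The share on chromosomes 1 to 19, 4.70%, is inside this interval.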

How the results depend on the processing

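No paired analysis was possible because the peak list holds no value per library. The list gives no depth, so weak peaks cannot be told from absent ones. Of 68 values recomputed under alternatives, 50 were classed as unchanged. The yardstick differed by kind of value: shares had to stay within the interval, and the count of peaks within 1.5 times of the value reported. The count of 455 was 259 with a 0.5 kb window, 760 with a 2 kb window, 205 when the peak had to cover the end itself and 231 for peaks wider than the median of all peaks. The median distance to the end was 236 bp with the 0.5 kb window, 801 bp with the 2 kb window and 188 bp for peaks covering the end. For peaks covering the end, the median width was 770 bp, 24.9% were inside a protein-coding gene, 86.8% were nearest to a lncRNA and 71.7% of lncRNA peaks with a strand were at the start. Without pseudogenes 93.1% were nearest to a lncRNA. For the wider peaks the median width was 833 bp and 13.9% had another peak within 10 kb, against 13.8% of all such wider peaks. For all 455 that share was 7.03% within 5 kb and 58.2% within 50 kb. A response gene lay within 10 kb of 1.32%. The kappaB consensus was in 22.6% of windows, against 60.9% for the looser string. These alternatives change the counts by their own construction. The alternatives for the end, the distance and the chromosome, and the AP-1 string, were chosen after seeing the data.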
